A study of Homo sapiens with 9 samples.

Results

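The S100 proteins of Huh-7 cells were followed through 10 genes of 60664 in the count table, S100A2, S100A4, S100A6, S100A10, S100A11, S100A13, S100A14, S100A16, S100P and S100B, each matched by its Ensembl identifier and described in all 9 libraries. Of these genes, 8 lay in the S100 cluster of chromosome 1, S100P lay on chromosome 4 and S100B on chromosome 21. Huh-7 is a human hepatocellular carcinoma line. mRNA of wild type cells (WT), of cells lacking vtRNA1-1 (1-1 KO) and of cells lacking vtRNA1-2 (1-2 KO) was sequenced to ask what the loss of either short noncoding vault RNA does to the transcriptome, with 3 libraries per line. All cells were untreated and grown in the same medium. WT and 1-1 KO cells came from another laboratory, whereas 1-2 KO was a single cell clone made from these WT cells with CRISPR/Cas9, so each knockout is 1 line and a difference between lines cannot be told apart from one between clones. RNA was extracted in triplicate, and the p-values measure the spread between these libraries.

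S100 proteins are small cytoplasmic proteins with a pair of EF-hand calcium-binding motifs. Most form dimers that open on binding calcium and then attach to target proteins such as annexins, cytoskeletal motors and adaptors. S100A10 is an exception, since its EF-hands have lost calcium binding and it sits in a permanent complex with annexin A2. Several members are also released from cells, where they can bind the receptor RAGE. In liver tumours they are mostly studied in connection with cell movement and invasion.

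The library totals lay between 32384469 and 41782387 counts, and the members together held 0.0545% to 0.0576% of the counts in WT, 0.0374% to 0.0409% in 1-1 KO and 0.0248% to 0.0271% in 1-2 KO. Replicate 1 of 1-2 KO stood apart from the other libraries of its line, where the chi-square over its degrees of freedom was 13.6 and 14.4 against them and 2.51 between replicates 2 and 3. The WT libraries were not uniform either, at 4.61 to 9.39, with the highest value between replicates 1 and 3. In 1-1 KO it was 1.97 to 3.21. VTRNA1-1 and VTRNA1-2 had at most 1 count in any library, which checks no genotype because they are short RNAs that an mRNA library does not capture. The liver markers albumin and alpha-fetoprotein were abundant in every line, with 2532 CPM (counts scaled to library size) of ALB in WT, 9427 in 1-1 KO and 4739 in 1-2 KO, and 1759, 8167 and 7419 CPM of AFP in the same order. Of the 8 liver markers, 7 were higher than WT in 1-1 KO, whereas in 1-2 KO 4 were higher and TTR (1.56-fold) and TF (1.17-fold) were lower. Beside these and the marker calls below, 32.5% of all tested genes were called higher and 30.9% lower in 1-1 KO. In 1-2 KO the shares were 28.2% and 26.2%. The 15 markers of other cell types summed to 24.1 to 26.2 CPM in WT, 28.3 to 29.9 in 1-1 KO and 27.5 to 29.1 in 1-2 KO, and 8 of them were high enough to test. KRT14 was at 0 counts in every library. Of the 8 tested, PTPRC, CD14 and PDGFRB were higher and MLANA was lower than WT in 1-1 KO. In 1-2 KO, PTPRC (6.30-fold), GFAP (6.24-fold), PDGFRB (3.66-fold), COL3A1 (1.78-fold), CD14 (1.33-fold) and COL1A1 (1.17-fold) were higher, and PECAM1 was lower, at 0.839 CPM against 7.57 in WT. The values of PTPRC, GFAP and MLANA rest on few counts. PTPRC had 6, 8 and 3 counts in WT, and MLANA had 13, 8 and 10 there. GFAP had 4, 1 and 2 counts in WT and reached 10 counts only in 1-2 KO (18, 17 and 16), where it was high. The part of the marker differences in the S100 values was not tested. These are bulk libraries, in which fewer cells with an mRNA and less of it per cell cannot be told apart.

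Of the 10 members, 9 passed the filter on low counts. CPM here uses edgeR's TMM factors. Each adjusted p is from the quasi-likelihood test of edgeR after Benjamini-Hochberg correction across 17207 genes, and 0.05 was the threshold for a call. In 1-1 KO, 5 members were lower than in WT and 2 were higher, while 30.9% and 32.5% of all tested genes were called in these directions and 63.4% were called in either. In 1-2 KO all 9 tested members were lower than in WT, beside 26.2% of all genes lower and 54.4% called in either direction. The median log2 difference of the tested members was -0.45 in 1-1 KO and -1.15 in 1-2 KO, whereas the medians over all genes were 0.01 and 0.02. The knockouts are both compared with the same 3 WT libraries. Falls of more than 1 on the log2 scale were seen for 1 member in 1-1 KO, beside 3.97% of all genes, and for 5 members in 1-2 KO, beside 3.06%. Among these 5 was S100A2, which had 11, 10 and 7 counts in 1-2 KO and passed the filter through the other lines, where it was higher. The libraries of the lines compared did not overlap for 6 of the 9 tested members in 1-1 KO and for 9 in 1-2 KO, beside 68.9% and 58.4% of all genes.

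**Figure D1:**
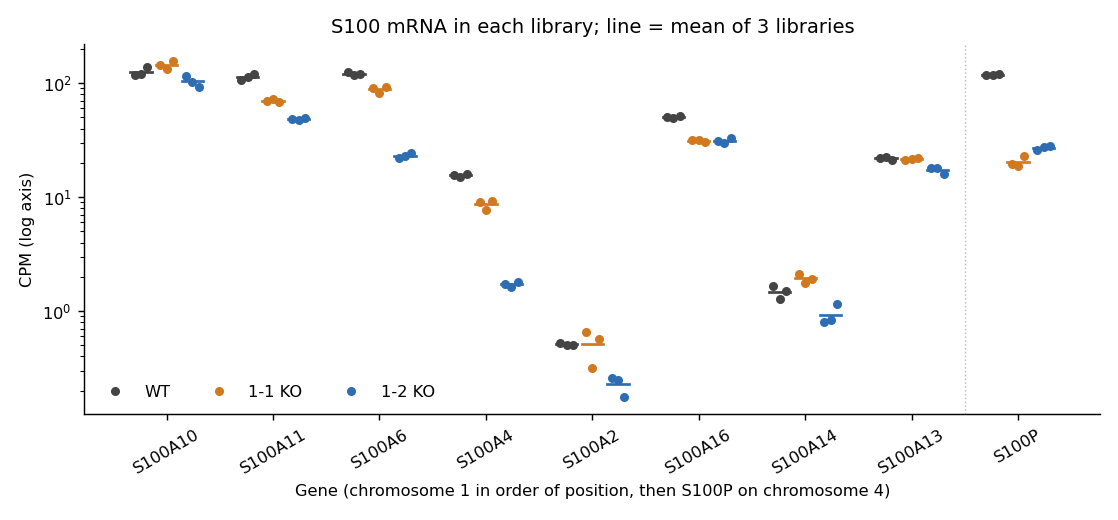
CPM of the 9 tested S100 members on a log axis, with a point for each library and a horizontal line at the mean of the 3 libraries of a line. S100P, S100A4 and S100A6 show the widest spacing between lines, whereas the points of S100A10 and S100A13 lie close together.

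S100P, first found in placenta, binds ezrin and the receptor RAGE and is known as a marker of many epithelial tumours. Its gene (ENSG00000163993) lies on the plus strand at chr4:6693878-6697170 on GRCh38. The WT libraries held 117, 119 and 120.2 CPM, those of 1-1 KO 19.5, 18.9 and 23.1 CPM, and those of 1-2 KO 25.8, 27.7 and 28.2 CPM. No library of either knockout came near the WT libraries, and the knockouts did not overlap each other. S100P was 5.78-fold lower in 1-1 KO than in WT (log2 -2.53, SE 0.06, adjusted p = 6.44e-13) and 4.36-fold lower in 1-2 KO (log2 -2.12, SE 0.06, adjusted p = 2.8e-12). Between the knockouts it was 1.33-fold higher in 1-2 KO (adjusted p = 6.93e-05), the one member higher in that direction.

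S100A4, also called metastasin, binds the heavy chain of non-muscle myosin IIA and is best known for its link to cell motility. Its gene (ENSG00000196154) lies on the minus strand at chr1:153543613-153550136. It stood at 15.5, 15.1 and 15.9 CPM in WT, at 9.12, 7.73 and 9.31 CPM in 1-1 KO and at 1.73, 1.63 and 1.80 CPM in 1-2 KO. The lines formed separate steps with no overlap. The fall from WT was 1.78-fold in 1-1 KO (log2 -0.83, SE 0.08, adjusted p = 5e-07) and 9.0-fold in 1-2 KO (log2 -3.17, SE 0.10, adjusted p = 4.96e-12), and 1-2 KO was 5.06-fold lower than 1-1 KO (adjusted p = 8.66e-11).

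S100A6, or calcyclin, binds the adaptor CACYBP and several annexins and is typical of dividing cells. Its gene (ENSG00000197956) lies near S100A4 on the same strand, at chr1:153534599-153536244, with S100A5 between them. WT libraries held 126, 117 and 121 CPM, 1-1 KO libraries 90.9, 82.1 and 92.8 CPM, and 1-2 KO libraries 21.9, 23.1 and 24.3 CPM. As for S100A4, the lines did not overlap and 1-2 KO was the lowest. The fall was 1.37-fold in 1-1 KO (log2 -0.45, SE 0.05, adjusted p = 2.15e-06) and 5.25-fold in 1-2 KO (log2 -2.39, SE 0.05, adjusted p = 3.23e-13). The knockouts differed 3.84-fold (adjusted p = 1.31e-12).

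The sequences around the starts of 4 members are shown, the 3 that fell most in a knockout and S100A10 as the member that remained most abundant per length there. Each window runs 5′ to 3′ on the gene's strand from 150 bases before to 20 bases after the RefSeq start on GRCh38.p14. Capitals mark TATAAA, a core promoter motif, or GGGCGG, the GC box. The windows are chr4:6693728-6693897 on the plus strand for S100P and, on the minus strand, chr1:153545787-153545956 for S100A4, chr1:153535972-153536141 for S100A6 and chr1:151993840-151994009 for S100A10.
S100P: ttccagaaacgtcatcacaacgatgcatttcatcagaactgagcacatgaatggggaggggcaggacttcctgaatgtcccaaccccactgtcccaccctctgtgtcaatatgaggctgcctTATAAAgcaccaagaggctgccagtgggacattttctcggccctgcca
S100A4: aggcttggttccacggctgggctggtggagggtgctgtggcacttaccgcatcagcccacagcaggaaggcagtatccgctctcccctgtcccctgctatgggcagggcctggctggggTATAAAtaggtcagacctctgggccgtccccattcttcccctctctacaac
S100A6: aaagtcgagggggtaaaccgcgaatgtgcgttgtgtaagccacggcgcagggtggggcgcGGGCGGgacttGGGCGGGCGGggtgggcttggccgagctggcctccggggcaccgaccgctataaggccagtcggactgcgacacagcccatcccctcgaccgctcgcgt
S100A10: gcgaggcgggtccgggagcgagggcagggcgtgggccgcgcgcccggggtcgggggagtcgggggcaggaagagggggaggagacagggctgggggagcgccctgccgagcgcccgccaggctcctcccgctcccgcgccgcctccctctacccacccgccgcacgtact
S100P and S100A4 carried TATAAA 28 and 31 bases before the start, S100A6 held 3 matches to GGGCGG and S100A10 held no match. Of the 6 motifs searched on both strands, TATAAA was found in 7.11% of 34773 human windows of this length, GGGCGG in 38%, CCAAT in 24.8%, TGANTCA in 4.76%, CACGTG in 5.0% and TGACGTCA in 1.58%. RefSeq windows were matched for 9 members, S100B being the one not matched. Over all their starts, TATAAA occurred in 3 members, GGGCGG in 4, CCAAT in 2 and TGANTCA in 1, the last being S100A2. A match is a description of the letters and not evidence of a used site.

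S100A11, or calgizzarin, binds annexin A1 and takes part in membrane repair. Its gene (ENSG00000163191) lies at chr1:152032506-152047907. The values were 107, 114 and 121 CPM in WT, 69.2, 72.2 and 68.2 CPM in 1-1 KO and 48.6, 47.8 and 49.1 CPM in 1-2 KO. The lines did not overlap. It fell 1.63-fold in 1-1 KO (log2 -0.71, SE 0.04, adjusted p = 7.68e-09) and 2.35-fold in 1-2 KO (log2 -1.23, SE 0.05, adjusted p = 3.78e-11), with a 1.44-fold difference between the knockouts (adjusted p = 1.69e-07).

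S100A16 is a widely expressed member with weak calcium binding (ENSG00000188643, chr1:153606886-153613145). Libraries of WT held 50.7, 49.6 and 51.7 CPM, against 31.4, 31.7 and 30.5 CPM in 1-1 KO and 30.9, 30.1 and 33.0 CPM in 1-2 KO. Both knockouts lay below WT and overlapped each other. It was 1.62-fold lower than WT in each of them (adjusted p = 1.06e-08 in 1-1 KO and 1.51e-08 in 1-2 KO). The difference between the knockouts was 0.01 on the log2 scale, with a 95% interval from -0.09 to 0.11 (adjusted p = 0.929).

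S100A10 (ENSG00000197747, chr1:151982915-151993859), the annexin A2 ligand that brings plasminogen to the cell surface, moved little. Its libraries held 118, 120 and 138 CPM in WT, 143, 134 and 157 CPM in 1-1 KO and 116, 102 and 93.2 CPM in 1-2 KO. The highest WT library lay within the range of 1-1 KO, whereas no 1-2 KO library reached WT. S100A10 was 1.16-fold higher in 1-1 KO (log2 0.21, SE 0.08, adjusted p = 0.0298) and 1.21-fold lower in 1-2 KO (log2 -0.27, SE 0.08, adjusted p = 0.00975), and 1-2 KO was 1.4-fold lower than 1-1 KO (adjusted p = 8.66e-05). The call in 1-1 KO was lost with DESeq2 (adjusted p = 0.108) and without WT replicate 1, WT replicate 2, 1-1 KO replicate 1 or 1-1 KO replicate 3, where the adjusted p reached 0.146. Without 1-2 KO replicate 1, the difference in 1-2 KO was log2 -0.36 (adjusted p = 0.000556).

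S100A13 (ENSG00000189171, chr1:153618787-153631360) takes part in the export of FGF1 and interleukin 1 alpha, which lack signal peptides. It stood at 22, 22.4 and 21.4 CPM in WT, at 21.2, 21.7 and 22.2 CPM in 1-1 KO and at 17.9, 18.1 and 15.9 CPM in 1-2 KO. WT and 1-1 KO overlapped, and 1-2 KO lay below both. The difference in 1-1 KO was -0.02 on the log2 scale, with a 95% interval from -0.14 to 0.11 (adjusted p = 0.838), and 1-2 KO was 1.27-fold lower than WT (log2 -0.34, SE 0.06, adjusted p = 0.000219). Its counts are less certain than those of the other members, since 536 of its exonic bases are shared with a lncRNA on the same strand and 235 with S100A1 on the opposite strand.

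S100A14 (ENSG00000189334, chr1:153614255-153616986), an epithelial member, was near 1 CPM. Values were 1.66, 1.28 and 1.49 CPM in WT, 2.13, 1.78 and 1.91 CPM in 1-1 KO and 0.807, 0.829 and 1.15 CPM in 1-2 KO. The lines did not overlap. It was 1.31-fold higher in 1-1 KO (log2 0.39, SE 0.16, adjusted p = 0.0487) and 1.59-fold lower in 1-2 KO (log2 -0.67, SE 0.18, adjusted p = 0.00624), a 2.09-fold difference between the knockouts (adjusted p = 8e-05). The rise in 1-1 KO missed the threshold with DESeq2 (adjusted p = 0.175) and in 6 of 9 fits with a library left out, namely without WT replicate 2 or 3, any 1-1 KO library or 1-2 KO replicate 2, where the adjusted p reached 0.18.

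S100A2 (ENSG00000196754, chr1:153561108-153567890), known from squamous and basal epithelium, was the lowest of the tested members, with 7 to 28 counts per library. WT libraries held 0.528, 0.507 and 0.507 CPM, 1-1 KO libraries 0.662, 0.316 and 0.564 CPM, and 1-2 KO libraries 0.261, 0.251 and 0.175 CPM. The 1-1 KO libraries lay on both sides of WT and those of 1-2 KO lay below every other library. The difference in 1-1 KO had a 95% interval from -0.61 to 0.61 on the log2 scale (adjusted p = 0.998), so that a change within this range was compatible with the counts. In 1-2 KO it differed from WT by log2 -1.15 (SE 0.33, adjusted p = 0.00898).

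S100B (ENSG00000160307, chr21:46598604-46605208), the form typical of glia and melanocytes, had 0 counts in all 9 libraries. A count of 0 allows up to 3 counts, which is 0.0709 to 0.0951 CPM at these depths and covers counting error only. No comparison of S100B between the lines was therefore possible. Between the members outside chromosome 1, S100P was thus among the most abundant S100 mRNAs of WT and S100B was not detected.

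**Figure D2:**
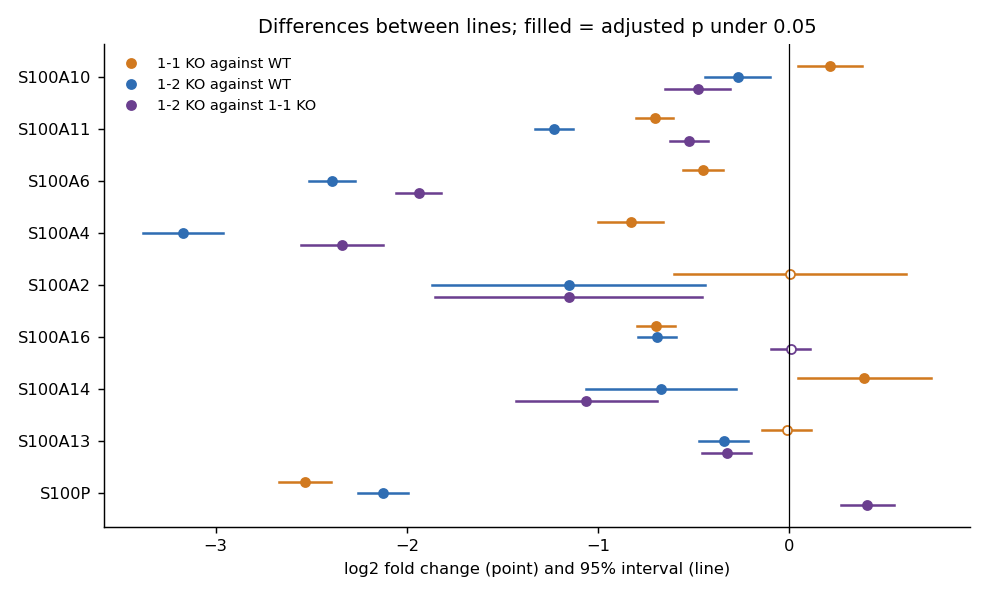
Log2 fold changes of the 9 tested members in the 3 comparisons, with 95% intervals as lines and filled points for an adjusted p under 0.05. All filled points of 1-2 KO against WT lie below 0, from -0.27 for S100A10 to -3.17 for S100A4.

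Of the 9 tested members, 7 were lower in 1-2 KO than in 1-1 KO and 1 was higher, beside 32.2% and 33.1% of all genes in these directions and 65.3% called in either. The libraries did not overlap for 8 members, beside 69.8% of all genes. The 7 were S100A2, S100A4, S100A6, S100A10, S100A11, S100A13 and S100A14, all on chromosome 1, and the difference was largest for S100A4 and smallest for S100A13 (1.26-fold). This direction did not hold for the whole cluster, since S100A3 and S100A9, which lie in it but are not among the 10 genes, were higher in 1-2 KO and S100A16 and S100A1 were not called. The median over the 8 chromosome 1 members was -0.23 in 1-1 KO and -0.92 in 1-2 KO on the log2 scale, against -2.53 and -2.12 for S100P alone. S100P was thus lower relative to WT than every chromosome 1 member in 1-1 KO, but in 1-2 KO both S100A4 and S100A6 were lower still. A deep fall in 1-1 KO was not particular to S100P. Outside the 10 genes, S100A9 of the same cluster was at log2 -2.605 in 1-1 KO, below S100P, and S100A3 was at -2.386.

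Levels of different genes were compared as CPM per kb of exon, with a length that joins all annotated exons of a gene. The order of the genes therefore depends on the annotation. In WT the order was S100P (252), S100A11 (176), S100A6 (125), S100A10 (124), S100A16 (29.8), S100A4 (16.4), S100A13 (9.90), S100A14 (1.16) and S100A2 (0.332), with overlapping libraries for S100A6 and S100A10 and for no other neighbours. In 1-1 KO, S100A10 (143), S100A11 (108) and S100A6 (91.2) stood above S100P (43.5), and S100A13 (9.80) and S100A4 (9.22) overlapped. In 1-2 KO the order was S100A10 (103), S100A11 (74.7), S100P (57.8), S100A6 (23.8), S100A16 (18.4), S100A13 (7.80), S100A4 (1.82), S100A14 (0.727) and S100A2 (0.148), with no overlap between neighbours. The member at the top therefore was S100P in WT and S100A10 in each knockout.

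The summed level of the 9 members was 734 ± 23.9 CPM per kb in WT, 425 ± 19.0 in 1-1 KO and 288 ± 7.19 in 1-2 KO (SD, n = 3). S100P made up 34.3% of this sum in WT, 10.2% in 1-1 KO and 20.1% in 1-2 KO. S100A6 contributed 17.0%, 21.5% and 8.28%. S100A10, which changed least in CPM among the abundant members, made up 16.9%, 33.7% and 35.6%, while S100A11 held a similar share throughout, at 23.9%, 25.4% and 26.0%. The smaller sums of the knockouts thus came with a different make-up, in which the calcium-insensitive S100A10 had the largest share.

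**Figure D3:**
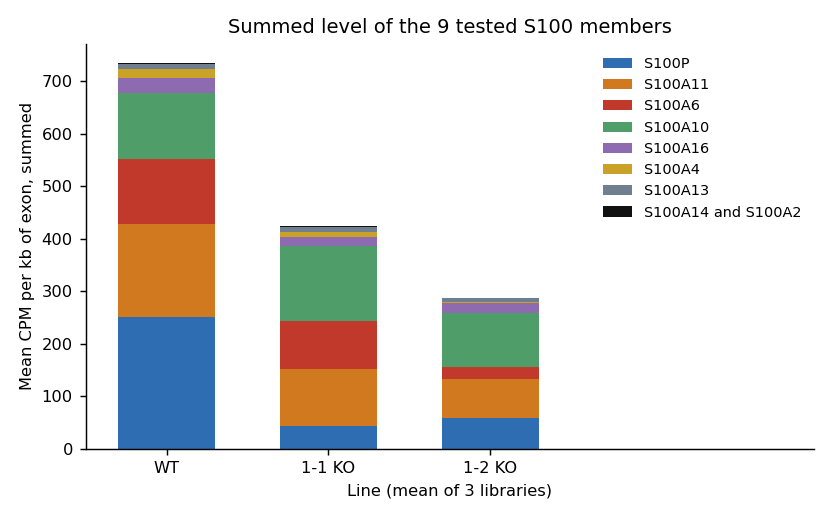
Mean CPM per kb of exon of the 9 tested members, stacked for each line, with bars starting at 0. The bars reach 734 in WT, 425 in 1-1 KO and 288 in 1-2 KO, and the S100P segment is largest in WT.

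The S100 cluster spans 1648 kb from S100A10 to S100A13. Between these ends 72 annotated genes lie outside the family, mostly genes of the skin barrier, and their highest count in any library was 7, so that none was tested. The members were therefore set beside the 50 nearest tested genes outside the family. On chromosome 1 these spanned 1644 to 3524 kb, all outside the cluster, and members close together had largely the same neighbours. For S100A13, S100A14 and S100A16 all of them lay on one side, beyond S100A13. Around S100P they spanned 7275 kb. In 1-1 KO the median log2 fold change of these neighbours was between -0.68 and -0.54 for the chromosome 1 members, which is lower than the median of 0.01 over all genes. In 1-2 KO it was between -0.24 and -0.17.

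In 1-2 KO none of the 50 neighbours had fallen as far as S100A4, S100A6 or S100A11, and with the neighbours' median subtracted the log2 differences remained -2.99, -2.21 and -0.995. For S100A2, S100A14, S100A16, S100A13 and S100A10, 3, 6, 6, 11 and 22 of the 50 neighbours were lower, and the subtracted differences were -0.97, -0.50, -0.52, -0.17 and -0.03. S100A10 in 1-2 KO thus lay near the middle of its neighbours. In 1-1 KO, 11 of the 50 neighbours were lower than S100A4, 33 were lower than S100A6, 15 were lower than S100A11 and 22 were lower than S100A16, and the subtracted differences were -0.19, 0.18, -0.16 and -0.06. The falls of these members in 1-1 KO were thus within the range of these neighbours outside the cluster. S100A10, S100A13, S100A14 and S100A2 in 1-1 KO lay above most of their neighbours, of which 41 to 46 were lower. Around S100P the neighbours' medians were -0.48 and -0.34, and 2 and 1 of 50 neighbours were lower than S100P in 1-1 KO and in 1-2 KO.

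**Figure D4:**
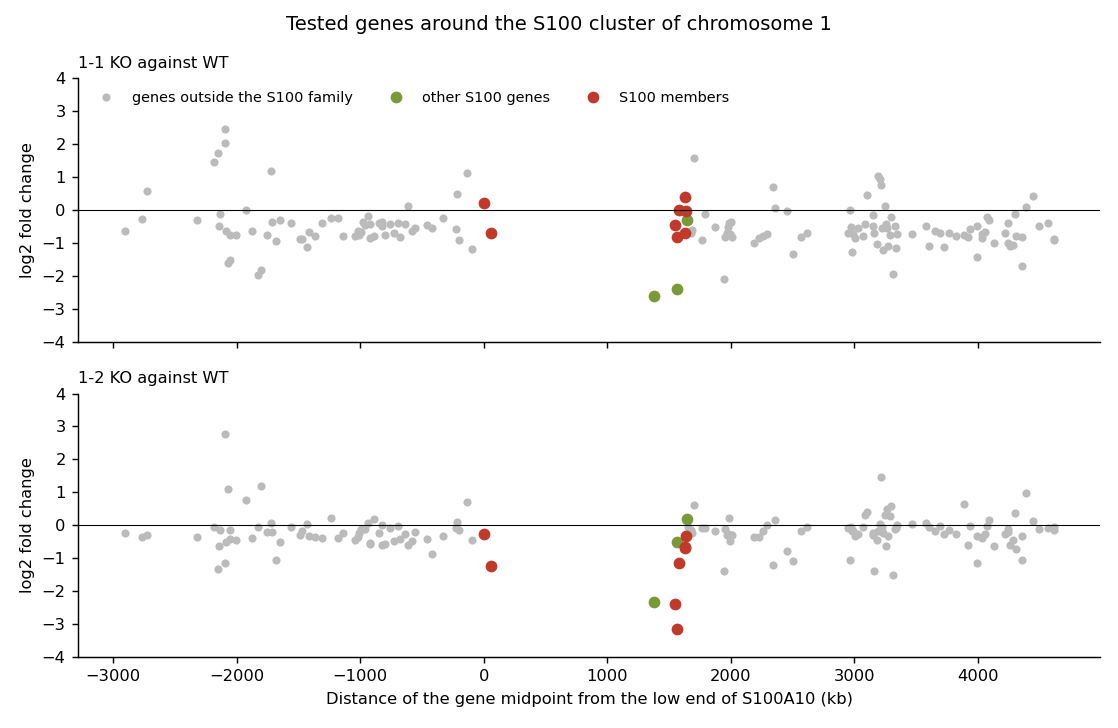
Log2 fold change of each tested gene against the distance of its midpoint from the low end of S100A10, for 1-1 KO (top) and 1-2 KO (bottom) against WT. Grey genes outside the family lie mostly below 0 in 1-1 KO and nearer to 0 in 1-2 KO, where S100A4 and S100A6 lie below all of their 50 nearest neighbours.

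Of 11 further S100 genes in the table, 3 were tested, and all 10 S100 pseudogenes were at 0 counts. S100A9, a subunit of calprotectin best known from myeloid cells, held 67.2 ± 3.19 CPM in WT, 11.0 ± 1.14 in 1-1 KO and 13.4 ± 0.193 in 1-2 KO (SD, n = 3). It was 6.08-fold lower in 1-1 KO (adjusted p = 9.66e-13) and 5.01-fold lower in 1-2 KO (adjusted p = 2.64e-12). The lines were thus ordered as for S100P, with 1-2 KO 1.21-fold above 1-1 KO (adjusted p = 0.00322), although S100A9 lies in the chromosome 1 cluster. S100A3, whose gene overlaps that of S100A4 without shared exonic bases, held 2.24 ± 0.208, 0.427 ± 0.0952 and 1.57 ± 0.142 CPM. It went the other way from S100A4 between the knockouts, being 5.23-fold lower than WT in 1-1 KO (adjusted p = 5.4e-08), 1.43-fold lower in 1-2 KO (adjusted p = 0.00872) and 3.65-fold higher in 1-2 KO than in 1-1 KO (adjusted p = 8.7e-07). The fall of S100A3 in 1-2 KO missed the threshold with DESeq2 (adjusted p = 0.0559). S100A1 was called in no comparison, with adjusted p of 0.537, 0.72 and 0.296.

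A list of 20 S100 binding partners and receptors was followed beside the members. In 1-1 KO 5 of them were higher and 12 lower, with a median log2 difference of -0.14. In 1-2 KO 5 were higher and 11 lower, with a median of -0.19. The shares called were 85% and 80%, beside 63.4% and 54.4% of all genes. Between the knockouts 7 partners were higher in 1-2 KO and 8 lower, with a median of -0.03, which is 75% called beside 65.3% of all genes.

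Annexin A1, the partner of S100A11 and a membrane-binding protein that dampens inflammation, showed the widest difference. ANXA1 held 26.2, 27.5 and 27.9 CPM in WT, 114, 105 and 107 CPM in 1-1 KO and 7.07, 8.49 and 7.94 CPM in 1-2 KO. The lines were far apart. It was 4.01-fold higher in 1-1 KO (adjusted p = 1.44e-12), 3.48-fold lower in 1-2 KO (adjusted p = 2.5e-11) and 13.9-fold lower in 1-2 KO than in 1-1 KO (adjusted p = 5.23e-15). S100A11 itself was lower in each knockout.

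Annexin A2, the scaffold that holds S100A10, was 1.21-fold lower in 1-1 KO (adjusted p = 7.24e-05) and 1.18-fold lower in 1-2 KO (adjusted p = 0.000377). ANXA2 held 918, 919 and 912 CPM in WT, 769, 746 and 756 CPM in 1-1 KO and 718, 813 and 804 CPM in 1-2 KO. Replicate 1 of 1-2 KO was the lowest of its line, and without it ANXA2 was higher in 1-2 KO than in 1-1 KO by 0.10 on the log2 scale (adjusted p = 0.00701), compared with 0.04 over all libraries (adjusted p = 0.434). The ratio of S100A10 to ANXA2 per kb of exon was 1.47, 1.49 and 1.73 in WT, 2.13, 2.06 and 2.38 in 1-1 KO and 1.85, 1.43 and 1.32 in 1-2 KO. The ratio was above every WT library in all 1-1 KO libraries, while 1-2 KO lay on both sides of WT. The lengths joined all annotated exons, 1012 bases for S100A10 and 11574 for ANXA2, and the size of the ratio depends on them. Without the lengths, S100A10 was below ANXA2 in every library, at a mean of 125 against 916 CPM in WT. The ratio therefore compares lines and does not show which mRNA was more abundant.

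Non-muscle myosin IIA, the motor bound by S100A4, moved in opposite directions in the knockouts. MYH9 held 2289, 2251 and 2460 CPM in WT, 1132, 1175 and 1114 CPM in 1-1 KO and 2539, 2618 and 2606 CPM in 1-2 KO. It was 2.05-fold lower in 1-1 KO (adjusted p = 4.91e-11) and 1.11-fold higher in 1-2 KO (adjusted p = 0.00552). The line with the lowest S100A4 was thus the one with the highest MYH9.

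CACYBP, the calcyclin-binding adaptor, was 1.22-fold lower in 1-1 KO (adjusted p = 0.0003) and 1.10-fold higher in 1-2 KO (adjusted p = 0.0425), but the call in 1-2 KO was lost with DESeq2 (adjusted p = 0.0511), with 4 other changes of the fit and in 5 of 9 fits with a library left out, namely without WT replicate 1 or 2, 1-1 KO replicate 1 or 2, or 1-2 KO replicate 1. Without WT replicate 1 or 1-2 KO replicate 1, its log2 difference in 1-2 KO dropped to 0.08 and 0.09 from 0.14. EZR, which encodes the S100P partner ezrin, was 1.10-fold lower in 1-1 KO (adjusted p = 0.00517) and 1.27-fold lower in 1-2 KO (adjusted p = 2.44e-06). AHNAK, the giant scaffold of the S100A10 and annexin A2 complex, differed by log2 -0.14 in 1-1 KO (adjusted p = 0.0169) and -0.11 in 1-2 KO (adjusted p = 0.0609), and both lay near the threshold. The call in 1-1 KO was lost without WT replicate 1 or 2 or 1-1 KO replicate 1 or 2 (adjusted p up to 0.0729), and 1-2 KO was called without WT replicate 3 (adjusted p = 0.00299) or 1-2 KO replicate 2 (adjusted p = 0.0424). With library size alone the call in 1-1 KO was also lost (adjusted p = 0.0819), and 1-2 KO was also called with DESeq2 (adjusted p = 0.0274), with its size factors (0.0452), without a filter (0.0162) and with at least 10 counts in every library (0.0448). AGER, the gene of RAGE, was at 2.81 ± 0.605, 2.85 ± 0.151 and 2.67 ± 0.565 CPM in the same order of lines (SD, n = 3) and was called in neither knockout (adjusted p = 0.958 and 0.716 by edgeR's test).

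**Figure D5:**
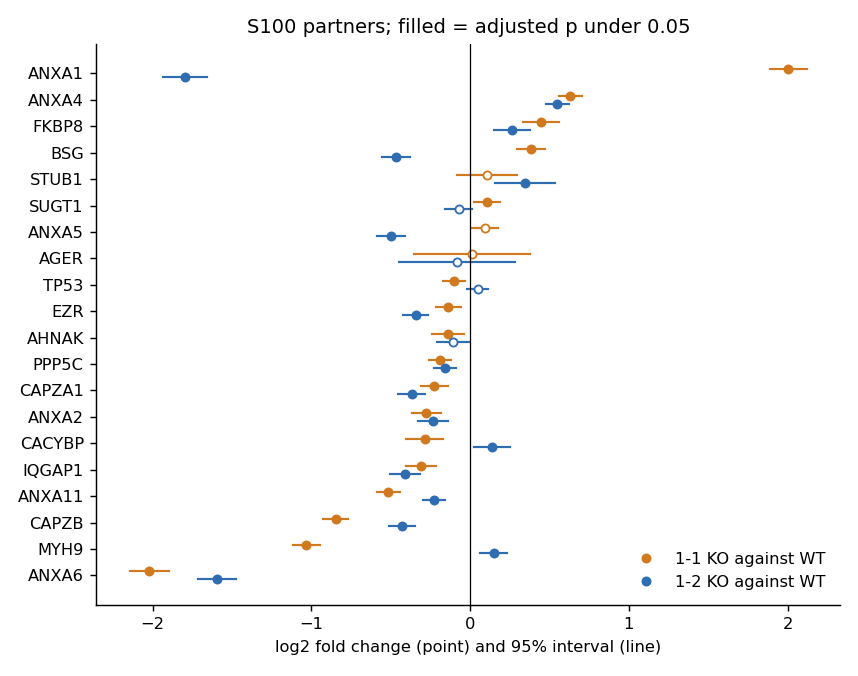
Log2 fold changes of the 20 S100 partners in each knockout against WT, with 95% intervals as lines and filled points for an adjusted p under 0.05. ANXA1 has the widest gap between the knockouts, at 2.00 in 1-1 KO and -1.80 in 1-2 KO.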

How the data were processed

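Stranded, paired mRNA libraries were sequenced from each of the Huh-7 lines, 3 per line. The authors used STAR on GRCh38 (annotation version 104) and then featureCounts, and what they deposited are read counts per gene without normalization. Use of the strand and of reads matching several places is not given in the sources used here, so overlapping genes are uncertain.

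Symbols and exon lengths came from GENCODE 44, which held 60463 of 60664 identifiers. Counts were tested in R 4.3.3 with edgeR 4.0.16 after filterByExpr (minimum count 10, minimum total 15) and TMM normalization, in 1 quasi-likelihood fit of all 9 libraries with a term per line. Benjamini-Hochberg adjustment covered 17207 genes, with a threshold of 0.05. SE and 95% intervals were derived from the fold change and F statistic. Floors of 3 counts cover counting error only. The 3 libraries of a line limit the precision of each mean.

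Alternatives were DESeq2 1.42.0, DESeq2 size factors, library size alone, no filter, at least 10 counts in every library, only the compared groups, a replicate block, an adjusted p under 0.01, each library left out in turn and subtraction of the median of 50 neighbours. For S100A3, S100A9 and the named partners they were added after seeing the data. The members, partner list and marker lists were chosen with earlier results of these data known. Named genes were the members, other tested S100 genes, ANXA1, ANXA2, AHNAK, MYH9, CACYBP, EZR and AGER, and the 2 genes most correlated with each member. A planned comparison with genes inside the chromosome 1 cluster was not made, since none was tested. Tested on simulated 1-1 KO against WT counts of 17013 genes, edgeR called 97 of 100 genes changed by 1 on the log2 scale in the right direction and 78 of 100 changed by 0.5. It also called 15 unchanged genes. The simulation gave every gene the same spread and changed only genes with enough counts. It therefore does not measure recovery at low counts, such as those of S100A2, or with the uneven replicates here. Plots were drawn with matplotlib 3.10.9 in Python 3.11.15.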

Additional observations from a re-analysis of the deposited data

Results flagged for a closer look

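The genes here were picked from the named genes because edgeR called them in opposite directions in the knockouts. A call in the direct comparison, which tests the difference, was also required, so that call is no further result. S100A10 was lower in 1-2 KO than in 1-1 KO by log2 -0.48 and S100A14 by log2 -1.06, although their rises over WT in 1-1 KO missed the threshold under several settings. ANXA1 differed by log2 -3.80 and MYH9 by log2 1.18, and for both the call in each knockout held without any single library. CACYBP differed by log2 0.42, with a rise in 1-2 KO that several settings removed. The knockouts share the WT libraries and each is 1 line.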

How the results depend on the processing

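The count of members higher in 1-1 KO than in WT was 2, and it became 0 with DESeq2's Wald test, 1 with DESeq2 size factors, 1 without a filter, 0 with an adjusted p under 0.01 and 0 to 2 with a library left out. The other counts of members and partners stayed within 1.5 times under all of these settings. After subtraction of each line's mean, same-numbered libraries of different lines had correlations of -0.35 to 0.18, and differently numbered ones -0.34 to 0.46. The replicate numbers thus gave no sign of pairing the libraries, although 3 libraries per line show this only roughly. With the replicate block the count of members higher in 1-1 KO was 1. Signs turned only for values that were not called, with 1 exception. S100A2 in 1-1 KO was -0.011 with DESeq2, -0.0105 with its size factors, -0.0152 without a filter, -0.00872 with the replicate block and -0.22 to 0.25 with a library left out. S100A13 in 1-1 KO was 0.0352 with library size alone, 0.0067 with at least 10 counts in every library, a filter that S100A2 did not pass, and -0.0321 to 0.0031 with a library left out. With the neighbours' median subtracted, S100A13 in 1-1 KO turned further, to 0.62. S100A16 between the knockouts was -0.0149 with at least 10 counts in every library, -0.0172 with only the compared groups and -0.0316 to 0.0341 with a library left out. The largest turn of S100A16 between the knockouts was to -0.50, with the neighbours' median subtracted. AGER in 1-1 KO was -0.00022 with DESeq2 size factors and -0.0061 without a filter, and with a library left out it ran from -0.11 to 0.20 in 1-1 KO, from -0.26 to 0.10 in 1-2 KO and from -0.27 to 0.0394 between the knockouts. The exception was S100A6 in 1-1 KO, which was 0.18 with the neighbours' median subtracted and is called otherwise. Library size alone moved the median of all genes to 0.06 in 1-1 KO and 0.07 in 1-2 KO. S100A2, with at most 28 counts in a library, is the member most limited by depth.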

Other observations

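The genes outside the family whose log2 CPM followed each member most closely over the 9 libraries were sought among 13341 tested genes that averaged 1 CPM or more. S100P was followed by MED28 (Pearson r 0.999) and MRTO4 (0.998), and S100A4 by RAB18 (0.997) and C1orf52 (0.996). RAB18 was also the closest gene to S100A6 (0.997), with GJA1 next (0.997). For S100A11 these were SNRPC (0.996) and STEAP1 (0.996), and for S100A16 they were PKM (0.996) and ANKRD44 (0.993). The closest genes to S100A10, S100A13, S100A14 and S100A2 were NDUFB4 (0.988), ZUP1 (0.981), BTN3A2 (0.977) and UQCC5 (0.961). These correlations describe the order and spacing of 3 lines rather than the size of a change. Many genes shared such values, with 38 above 0.99 for S100P, 48 for S100A6, 21 for S100A4, 18 for S100A11 and 14 for S100A16. The genes named for these members are only the highest of those. MED28 differed from WT by log2 -0.50 and -0.42 in 1-1 KO and in 1-2 KO, far less than S100P, whereas GJA1, which encodes the gap junction protein connexin 43, differed by log2 -0.33 and -2.18, close to the -0.45 and -2.39 of S100A6.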
